A study of Xenopus laevis with 4 samples.

Results

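The nearly fully methylated maternal sites are the cytosines whose 5-methylcytosine (m5C) level was at least 90% in stage 0 embryos of Xenopus laevis. They comprised 281 of the 16233 sites listed at stage 0 (1.73%) and lay in 271 of 7140 genes. In the whole-transcriptome bisulfite assay (RNA BS-seq), unmethylated cytosines of polyadenylated RNA are converted and read as T, whereas m5C is still read as C. The level of a site is the share of C among its C and T reads. The libraries came from wild-type X. laevis embryos, pooled at about 200 per stage, with 2 libraries at stage 25 and 2 libraries at stage 0. No treatment, mutant allele or transgene was used in either group, and the age of the embryos is given as the stage alone.

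Both libraries of a stage were combined in 1 deposited list of called sites. The spread between replicates was therefore not available for any value, and the intervals given are 95% Wilson intervals of the reads. They cover counting error alone, as the reads carry no molecular identifiers and several may stem from 1 molecule. Listed sites had 21 to 3890 reads at stage 25 (median 95, 45 sites in 41 genes) and 20 to 49613 reads at stage 0 (median 146). The titles of the stage 25 libraries begin with XT, although their organism label is X. laevis. Positions refer to build v9.2 and are printed as the lists have them. The sources used here do not state if counting starts at 0 or at 1, so each may be off by 1 nt.

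A fertilised frog egg carries mRNAs that the mother made during oogenesis, and the embryo lives on them until its own genome is switched on at the maternal-to-zygotic transition. In animal mRNA, m5C is written by the enzymes NSUN2 and NSUN6, which recognise different sequence and structure around the cytosine, and it is bound by the reader YBX1. Because X. laevis is an allotetraploid, many genes exist as homeologs, 1 copy in the L subgenome and 1 in the S subgenome, and the suffix of a gene name tells which copy is meant. An intermediate level at a site means that some of the molecules carried the mark, while a level near 100% leaves few molecules without it.

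The stage 0 level chose these sites, so it is described here without a test. Together they had 126625 reads, of which 9127 were T, a pooled level of 92.8%. The other 15952 sites had a pooled level of 28.3%. The median over sites was 92.7% at the nearly fully methylated sites and 20.7% at the rest. Most of them lay just above the limit. A level of 90% to under 92% was found at 96 sites, of 92% to under 94% at 99 sites, and of 94% to under 96% at 57 sites. Beyond that, 20 sites lay between 96% and 98%, and 9 sites at 98% or more. The level distribution had no gap at the limit, with 243 sites at 80% to under 85% and 252 sites at 85% to under 90%.

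Just outside the limit, tpp2.L had 188 C of 209 reads (89.95%), stk17a.S 439 of 488 (89.96%) and pan2.L 314 of 349 (89.97%). Just inside, at exactly 90%, were 8 sites, among them LOC108706885 with 18 C of 20 reads, acaa2.L with 36 of 40 and LOC397866 with 99 of 110. Counting error alone blurred this edge. At 194 of the 281 sites the interval included 90%, and at 266 sites under 90% the upper bound reached it. Only 87 sites had a lower bound of at least 90%. At 262 sites, the lower bound was at least 80%, and the smallest was 69.9%, in LOC108706885.

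Complete methylation was seen at 3 sites, each with few reads. In suox.L, the gene of the mitochondrial enzyme sulfite oxidase, all 41 reads were C (91.4% to 100%), at position 138807163 of the minus strand of chromosome 2L. In LOC108699487, all 36 reads were C (90.4% to 100%), at position 119613928 of the plus strand of chromosome 8L. In tmem8a.L on chromosome 9_10L, all 69 reads were C. None of the 3 could be told from a level of 95% by its reads, since each lower bound was below that value. A single T read was left at 11 further sites.

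The coverage of the sites was examined next. Nearly fully methylated sites had 20 to 10022 reads, with quartiles of 73 and 446 and a median of 146. The rest of the list had the same median of 146, with quartiles of 67 and 395. The share of sites at 90% or more was 1.78% (1.31% to 2.42%, 40 of 2241 sites) with 20 to under 50 reads and 1.60% (1.25% to 2.04%, 63 of 3940) with 50 to under 100 reads. It was 1.71% (1.43% to 2.05%, 115 of 6717) with 100 to under 500 reads, 1.94% (1.38% to 2.72%, 32 of 1650) with 500 to under 1000 reads and 1.84% (1.30% to 2.60%, 31 of 1685) with 1000 reads or more. These intervals overlapped throughout.

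The upper end of the levels did differ with coverage. Among nearly fully methylated sites, a level of at least 96% was found at 8 of 40 with 20 to under 50 reads. It was found at 8 of 63 with 50 to under 100 reads and 13 of 115 with 100 to under 500 reads. No site with 500 reads or more reached it. Counting error is wider where reads are few, and its part in this difference was not tested. The 63 nearly fully methylated sites with at least 500 reads had levels of 90.1% to 95.6% (median 92.7%). Of their 94613 reads, 6881 were T. The highest upper bound among them was 96.9%. Hence, at the sites where the level was measured most precisely, a remainder of T reads was always present. T reads that come from unmethylated molecules and those of other origin cannot be told apart in the lists.

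**Figure D1:**
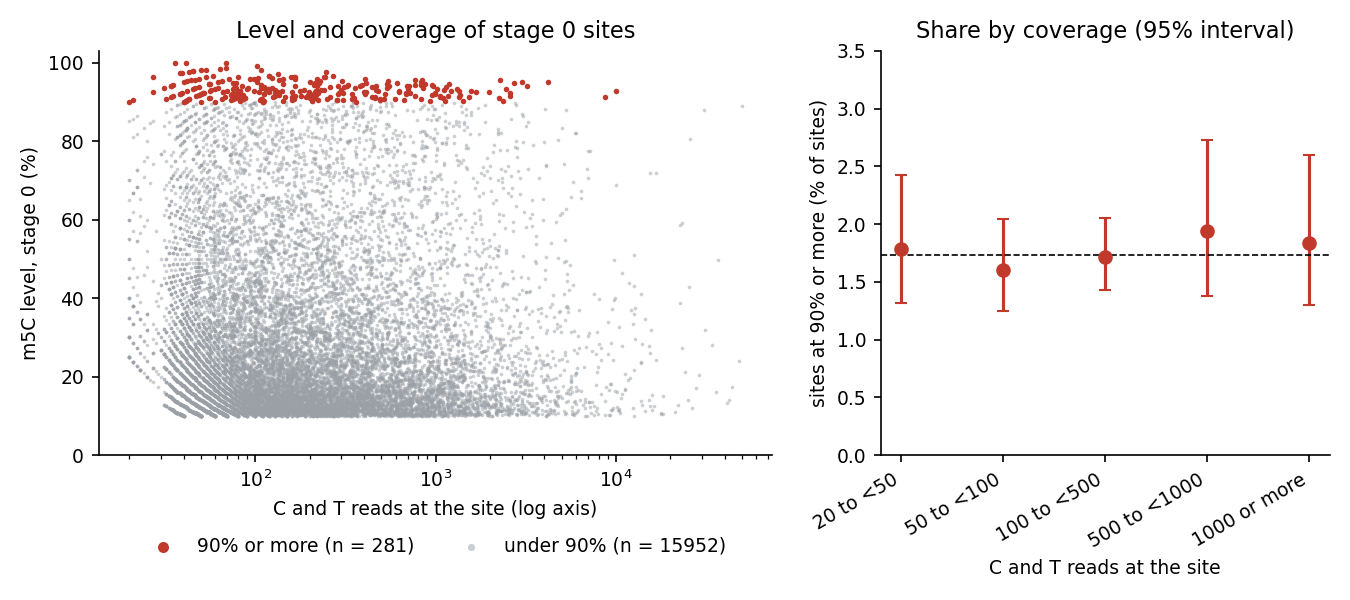
m5C level of every listed stage 0 site against its C and T reads on a log axis (left, 1 point per site), and the share of sites at 90% or more in 5 ranges of coverage with 95% Wilson intervals (right, the dashed line is the share in the whole list, 1.73%). The 281 red points lie at 20 to 10022 reads, the share is 1.60% to 1.94% in every range, and no point with 500 reads or more lies above 95.6%.

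Among the most deeply read sites was that in plin2.S, which encodes a coat protein of lipid droplets, with 7876 C of 8643 reads (91.1%, 90.5% to 91.7%) at position 96463908 of chromosome 1S. In mettl16.L (chromosome 2L, 4191 reads), the gene of an RNA adenosine methyltransferase, the level was 94.97%. In syncrip.S, which encodes an RNA-binding protein of the hnRNP family, 2874 of 3023 reads were C (95.1%, 94.2% to 95.8%), at position 69832567 of chromosome 5S. Counting error was small at this depth, and the interval of plin2.S lay below those of mettl16.L and syncrip.S. The intervals leave out the spread between replicates and reads that stem from the same molecule. The sites were also chosen for their level, so nothing is read from this.

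Other deeply read sites lay in genes of varied function. In cdc5l.L (chromosome 5L, position 148840990), which encodes a splicing factor in spite of its cell cycle name, 2374 of 2575 reads were C (92.2%). In necap2.L (chromosome 7L, position 119494911), a gene of clathrin-mediated endocytosis, 2358 of 2575 were C (91.6%). In smarcc1.L (chromosome 6L, position 3246319), a subunit of the SWI/SNF chromatin remodelling complex, 2286 of 2452 were C (93.2%). All 3 intervals lay between 90.4% and 94.2%. In tor1a.S (chromosome 8S, position 32890835), which encodes an ATPase of the endoplasmic reticulum and nuclear envelope, 2115 of 2347 were C (90.1%, 88.8% to 91.3%), so that this site could be on either side of the limit.

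By the lower bound of the interval, which weighs level and coverage together, the highest sites included ergic3.L at 97.6%, sltm.S at 95.6% and cntn4.L at 99.0%. They also included lima1.S, the gene of an actin-binding protein, with 797 C of 835 reads (95.4%, 93.8% to 96.7%) at position 131613174 of chromosome 2S. In cyp8b1.S, a cytochrome P450 gene of bile acid synthesis, 261 of 270 reads were C (96.7%, 93.8% to 98.2%) at position 5237333 of chromosome 6S. In hps6.L, whose product helps to form lysosome-related organelles, 734 of 769 were C (95.4%, 93.7% to 96.7%) at position 26169010 of chromosome 7L. The lower bounds of these 3 sites were all at 93.7% or more.

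On the chromosomes, the nearly fully methylated sites were spread much like the rest of the list. The plus strand held 146 of them and the minus strand 135, so that 52.0% (46.1% to 57.7%) were on the plus strand, against 49.8% of the rest. L chromosomes held 156, S chromosomes 110 and unplaced scaffolds 15, on 12 of the 110 scaffolds with listed sites. Of those on L or S chromosomes, 58.6% (52.6% to 64.4%) were on L, against 58.7% of the rest. Both differences were within the counting intervals. All 18 chromosomes carried at least 6 of these sites.

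The largest number, 29 sites in 27 genes, was on chromosome 9_10L. This was 2.76% (1.93% to 3.93%) of the 1052 sites listed there, a range whose lower bound lay above the 1.73% of the whole list. By share, chromosome 5S came next with 15 of 547 sites (2.74%, 1.67% to 4.47%). The lowest shares were on chromosome 6L, with 8 of 756 sites (1.06%, 0.537% to 2.07%), and on chromosome 6S, with 6 of 515 sites (1.17%). Taken by chromosome number, L and S together, the shares ranged between 1.10% for chromosome 6 and 2.18% for chromosome 9_10. The extremes were picked from 18 shares without a test, and only for 9_10L did the interval leave out the share of the whole list.

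**Figure D2:**
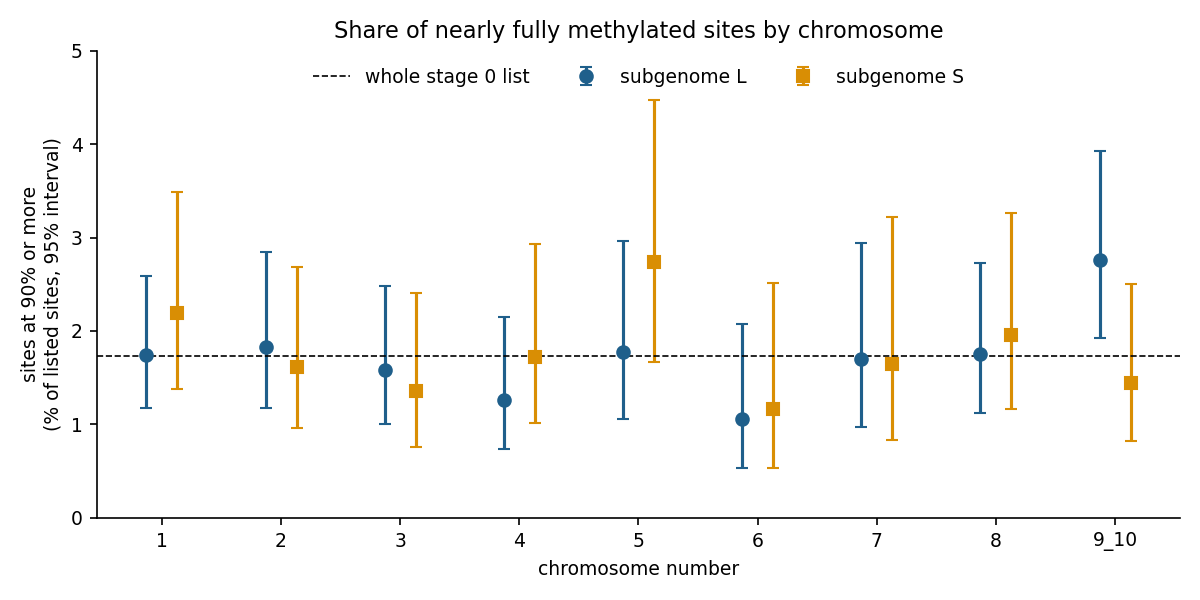
Share of listed stage 0 sites with a level of 90% or more on each of the 18 chromosomes, by chromosome number, for subgenome L (circles) and subgenome S (squares), with 95% Wilson intervals and the share of the whole list as a dashed line. The shares lie between 1.06% on 6L and 2.76% on 9_10L, and every interval except that of 9_10L includes 1.73%.

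No gene had more than 2 nearly fully methylated sites, and 10 genes had 2. Over the whole list, 1.73% of the sites were at this level, and 54.6% of the 7140 genes had at least 2 listed sites. Whether 10 genes are few or many for these shares was not tested. Closest together, 142 nt apart, were the 2 sites of fzd7.S, which encodes a Frizzled receptor of the Wnt pathway. Their levels were 93.9% (46 of 49 reads) and 90% (45 of 50 reads). In cnih4.S, whose product is a cargo receptor for export from the endoplasmic reticulum, 2 sites 636 nt apart had 92.5% (381 of 412 reads) and 90.6% (310 of 342). In spire1.S, the gene of an actin nucleator, 2 sites 1315 nt apart had levels of 94.5% (1126 of 1192) and 94.7% (2559 of 2701), which were within counting error of each other.

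The remaining 7 genes had their 2 sites at genomic distances of 2821 nt (LOC108701695) up to 22368 nt (edc4.L, a gene of mRNA decapping). Whether introns lie in between was not examined. The sites of vrk3.L, a gene of the vaccinia-related kinase family, had 92.3% (910 of 986 reads) and 94.0% (3002 of 3195 reads), 3390 nt apart. Further examples are pcnt.L, which encodes the centrosome scaffold pericentrin, with 93.3% (84 of 90) and 91.9% (102 of 111), and ikzf4.S, a zinc finger transcription factor gene, with 93.0% (173 of 186) and 91.1% (194 of 213). In b4galnt4.S, a glycosyltransferase gene, the levels were 91.2% on 34 reads and 91.2% on 159 reads. In eps8.S, whose product caps actin filaments, they were 90.2% on 82 reads and 91.1% on 146 reads. The nearest 2 such sites in different genes were 31367 nt apart, in cnih4.S and Xelaev18028646m.

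The other listed sites of the same genes, those under 90%, were then examined. Of the 271 genes, 223 (82.3%) had another listed site, whereas 53.5% of the 6869 genes without a nearly fully methylated site had more than 1. The genes had on average 3.80 and 2.21 listed sites. This difference is in part built in, because a gene with more listed sites has more chances that 1 of them is at 90%. Among the 271 genes, 48 had no other site, 79 had at least 5 sites and 11 at least 10.

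The other sites of these genes did not share the high level. Their 748 levels had a median of 20.4% with quartiles of 13.6% and 36.1%. The 12007 sites of the 3672 genes with 2 or more sites and none at 90% had a median of 20.7% with quartiles of 13.8% and 36.4%. Under 20% were 49.1% of the other sites of these genes and 48.1% of the sites of genes without such a site. At 50% or more were 14.4% and 14.8%. Median coverage was 171.5 reads in the first set and 155 in the second, and all levels here stop at 90% by construction.

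The next highest level in the same gene had a median of 40.1%, a median of 53.6 percentage points below the highest. As the highest level was chosen to be at 90% or more, this difference is a description. It was under 50% in 136 of the 223 genes and under 20% in 42, and it reached 80% in 29, which include the 10 genes with a second nearly fully methylated site. The largest difference was 84.7 points, in ergic3.L, where the other listed site had 12.8% on 304 reads. Coverage did not set these sites apart from others of their gene. The ratio of their reads to the median of the other sites had a median of 0.953 (quartiles 0.624 and 1.47), being higher in 100 genes and lower in 120.

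Deeply read genes show the contrast between listed sites of the same gene. In plin2.S, the only other site had 10.6% on 7987 reads, against 91.1% on 8643 reads. In mettl16.L, the other 3 sites had 10.1% on 4079 reads, 20.2% on 1389 reads and 12.2% on 270 reads. In both genes, a low site was about as deeply read as the high one. The high site was chosen for its level, so the contrast is a description.

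In the 6 genes with the most sites, of which 3 tied at 13, most other sites were far lower as well. LOC108701695 on chromosome 9_10L had 19 sites, of which 2 were at 91.96% and 90.8%, and the other 17 had levels of 10.1% to 50% (median 20.7%). In arhgef17.L, which encodes a guanine nucleotide exchange factor, 1 of 18 sites reached 93.9% (357 of 380 reads), at position 179929602 of chromosome 2L. The other 17 had 12.7% to 60.1% (median 16.5%), and the nearest, 118 nt away, had 14.0%. LOC108708548 had 1 site at 95.7% (44 of 46 reads) and 16 others at 11.1% to 65.7%. In edc4.L, 2 sites at 93.8% and 93.3% stood among 11 others of 10.2% to 69.1% (median 18.8%). In pcnt.L, the 11 others had 10.3% to 45.0% (median 16.0%). In sptbn1.S, the gene of a beta spectrin, 1 site had 98.1% on 107 reads, and the 12 others had 10.5% to 83.2% (median 15.3%). Its second highest site, with 83.2% on 435 reads, came nearer to the limit than any other site under 90% in these 6 genes.

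**Figure D3:**
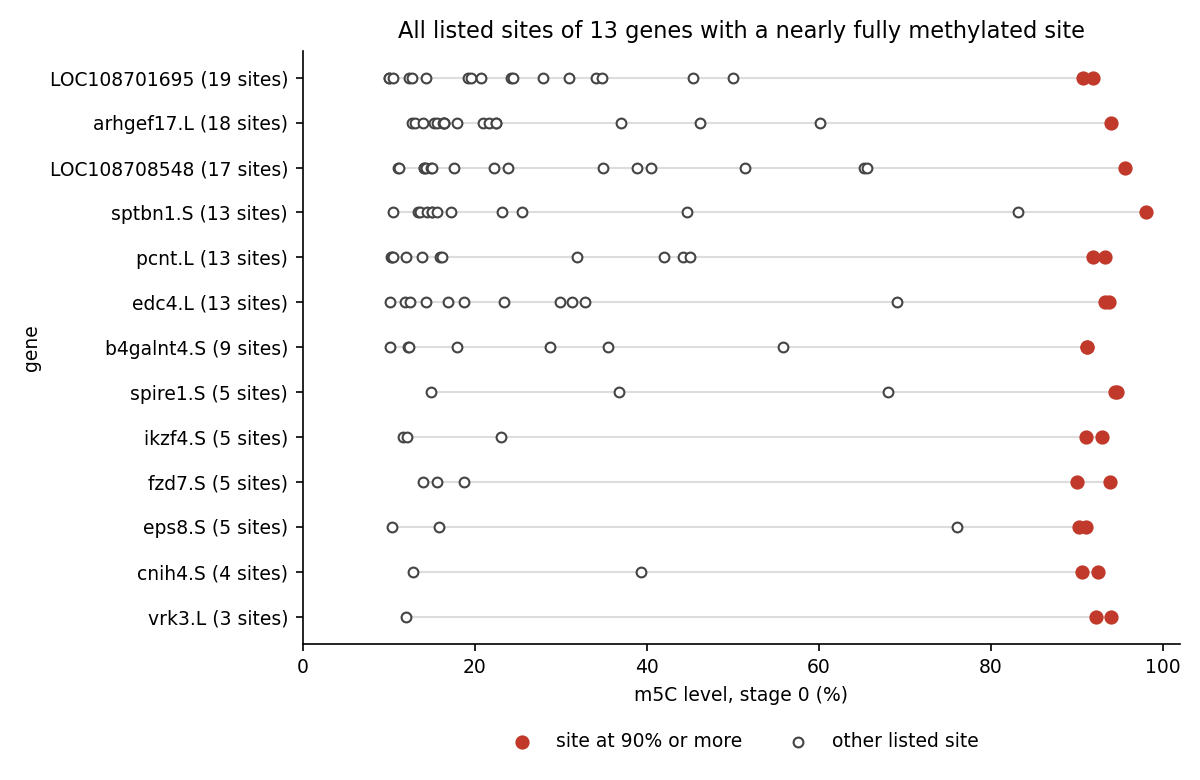
Stage 0 m5C levels of all listed sites of the 10 genes with 2 nearly fully methylated sites and of arhgef17.L, LOC108708548 and sptbn1.S, the other 3 of the 6 genes with the most sites (1 line per gene, filled red points at 90% or more, open points for the other sites). The open points lie mostly under 50%, and in each gene a space separates them from the red points, the narrowest in eps8.S with an open point at 76.1%, while the highest open point is at 83.2%, in sptbn1.S.

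The place of each site among the listed sites of its gene was counted as well. Of the 233 in genes with several sites, 76 (32.6%) were the 3′-most listed site, 101 (43.3%) were internal and 56 (24.0%) were the 5′-most. Over all 981 sites of the same genes, these shares were 22.7%, 54.5% and 22.7%. Genes with many listed sites weigh more in the latter shares, and most of their sites are internal. A higher share at either end is therefore in part built in, and nothing is read from it. Between the ends, which have equal shares over all sites, 76 against 56 sites were 3′-most, without a test. The order is that of listed sites on the strand of the gene and says nothing on coding sequence or untranslated region, which were not analysed here.

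Close neighbours gave the most direct comparison of levels, because both cytosines lie in the same stretch of transcript. Another listed site lay within 50 nt of 42 nearly fully methylated sites (14.9%, 11.3% to 19.6%), against 11.3% of the rest. Within 10 nt, there was 1 for 23 of them (8.19%, 5.52% to 12.0%), against 4.35% of the rest. Directly adjacent cytosines were both listed for 15 of them (5.34%, 3.26% to 8.62%), against 2.84% of the rest. The lower bounds of the 10 nt and adjacent shares lay above the values of the rest, and the 50 nt interval reached down to its value. Sites alone in their gene made up 17.1% of the nearly fully methylated sites and 20.0% of the rest. The number of listed sites per gene was not matched, so the part it has in these differences was not tested.

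The adjacent cytosine had a level of 12.3% to 89.1% (median 31.7%), and at 9 of the 15 pairs it was under 35%. In enah.S, a gene of the Ena/VASP family of actin regulators, 669 of 712 reads were C at position 12477469 of chromosome 5S (94.0%, 92.0% to 95.5%). Its 5′ neighbour had 171 C of 713 reads (24.0%, 21.0% to 27.3%). In pik3c2a.S, which encodes a lipid kinase, 366 of 388 reads were C at position 22138925 of chromosome 4S (94.3%), and 129 of 387 at its 3′ neighbour (33.3%). In actr1a.S, the gene of a dynactin subunit, 238 of 261 reads were C at position 18837049 of chromosome 7S (91.2%), and 60 of 261 at its 3′ neighbour (23.0%). The pair members had nearly the same depth, differing by at most 5 reads at 14 of the 15 pairs, so these contrasts rest on near-equal numbers of reads.

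Pairs with the lowest neighbours included LOC108719116, with 90.8% (59 of 65 reads) and 12.3% (8 of 65), and edc4.L, with 93.3% (111 of 119) and 12.5% (15 of 120). In add3.L, which encodes an adducin of the membrane skeleton, 96.6% (115 of 119) stood beside 31.7% (38 of 120). In LOC108699487, the fully methylated site had a 5′ neighbour at 22.2% (8 of 36). In slc15a4.S, the gene of a lysosomal peptide and histidine transporter, the neighbour was intermediate, with 91.5% (151 of 165) beside 51.2% (85 of 166). So a site at or near 100% gave no guarantee of a high level at the next cytosine.

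At 3 pairs, both cytosines were highly methylated. In ctdnep1.S, the gene of a nuclear envelope phosphatase, 907 of 965 reads were C at position 7909134 of Scaffold20 (94.0%, 92.3% to 95.3%) and 846 of 950 at its 5′ neighbour (89.1%, 86.9% to 90.9%). Their intervals did not overlap, but the first site was chosen for its level, so nothing is read from this. In pik3r2.L, a regulatory subunit of phosphoinositide kinase, the levels were 92.1% (70 of 76) and 81.6% (62 of 76), and in kctd3.L they were 90.7% (39 of 43) and 88.9% (40 of 45), with overlapping intervals in both. At 2 nt, LOC108718914 had 94.3% (894 of 948) and 80.8% (792 of 980).

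The lower neighbour was on the 5′ side at 11 of the 15 adjacent pairs and on the 3′ side at 4. Over all 236 adjacent pairs of the stage 0 list, the 5′ cytosine was the higher one at 120 and the 3′ cytosine at 114. Among the 8 sites with the nearest listed site at 2 to 10 nt, it was 5′ at 6 and 3′ at 2. In xnf7.L, which encodes a maternal nuclear factor known from Xenopus, a site 2 nt to the 5′ side of one at 91.6% (705 of 770) had 13.4% (108 of 808). In nvl.L, an ATPase gene of ribosome assembly, a site 7 nt away had 10% (11 of 110) beside 90% (99 of 110). In sgf29.S, a subunit of histone acetyltransferase complexes, 95.7% (90 of 94) stood 8 nt from 55.9% (76 of 136).

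**Figure D4:**
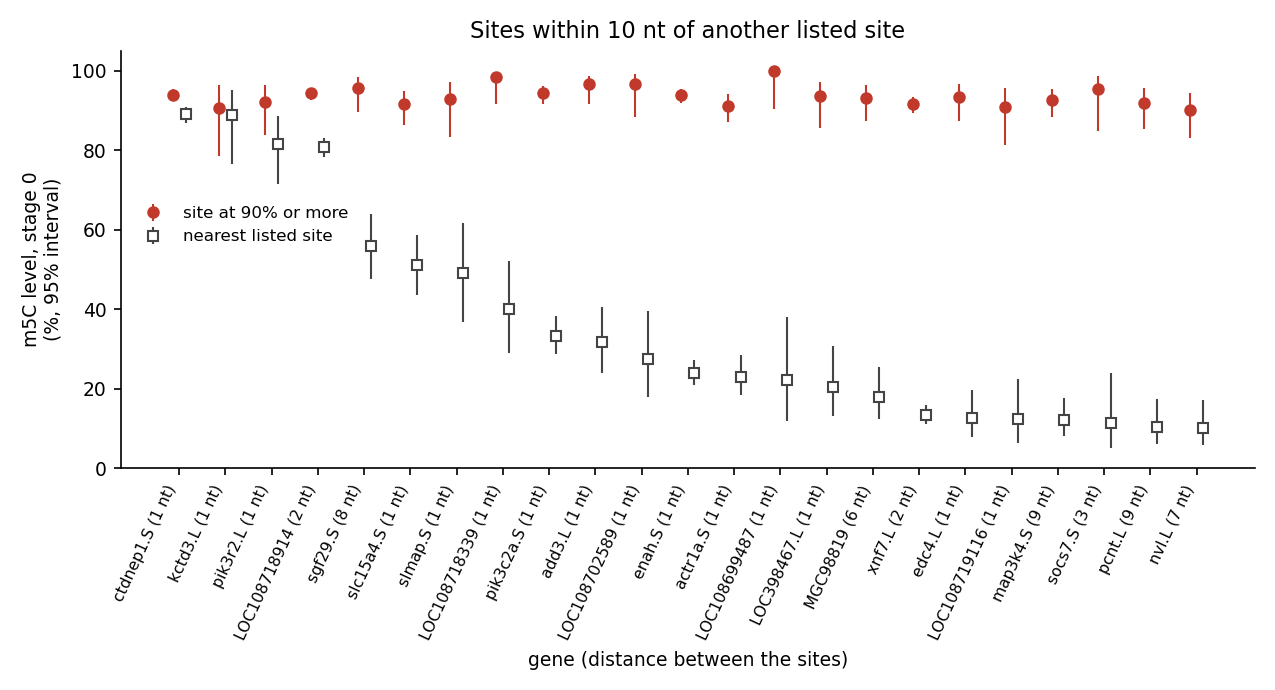
Stage 0 m5C levels of the 23 nearly fully methylated sites that have another listed site within 10 nt (filled circles, left of each pair) and of that nearest site (open squares), with 95% Wilson intervals, ordered by the level of the neighbour. The neighbours run between 10% in nvl.L and 89.1% in ctdnep1.S, and only in kctd3.L and pik3r2.L do the intervals of a pair overlap. The sites shown as circles were chosen for their level, so nothing is read from intervals that do not overlap.

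The homeologs offered a further comparison, although the limit of 90% was applied to the sites of both copies alike. Of the 271 genes, 224 had the suffix L (138) or S (86), and for 96 of them (42.9%) the other copy was also listed. Over all 5715 listed genes with a suffix, the other copy was listed for 36.1%. None of the 96 other copies had a site at 90% or more. Over all listed genes with a listed other copy, 4.66% had such a site in that copy. That share comes from the same gene pairs seen from the other side, so it is no outside reference. Copies were matched by name alone, so that the 47 genes without a suffix and the 128 whose other copy was not listed could not be compared. Of the 96 pairs, 83 lay on L and S chromosomes of the same number. The copies of myh14 lay on chromosomes 9_10L and 7S, and each remaining pair had a copy on a scaffold. The 318 sites of the other copies had a median level of 22.1% with quartiles of 14.2% and 40.2%. The highest site of the other copy had a median level of 43.9%, against 35.6% over all listed genes with a listed partner. It reached 50% in 39 of 96 copies (40.6%), against 32.9%, and was under 20% in 16. A highest level tends to rise with the number of listed sites in a copy. That number was not matched here, so both differences may be in part built in.

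In 9 genes, however, the other copy came close, with its highest site at 80% or more. These are named here because of that value. In lima1, the level was 95.4% in the S copy (93.8% to 96.7%), while the highest site of the L copy had 89.2% (971 of 1088 reads, 87.3% to 91.0%). In cdc27, a subunit of the anaphase-promoting complex, 95.8% in the L copy (389 of 406) stood against 88.1% (141 of 160) in the S copy. In enah, the values were 94.0% in S and 87.6% (346 of 395) in L, and in cnih4 they were 92.5% in S and 86.6% (515 of 595) in L. In fbxo33, sh3rf1, cdc5l and sltm, the other copies had 86.1% (62 of 72), 86.3% (126 of 146), 83.9% (464 of 553) and 83.6% (163 of 195). The ninth gene was fzd7. Whether the high sites of 2 copies are the same cytosine was not tested, as no alignment of the copies was made.

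Only spacing could be compared. In 62 gene pairs in which both copies had at least 2 listed sites, 231 distances between a nearly fully methylated site and another site of its gene were looked up in the other copy. An exactly equal distance was found in 2 pairs, fzd7 and irf2bp2, which are named for this reason. Distances were genomic, so a difference in length between the copies, as in an intron, would hide a shared position. In fzd7.S, the 2 nearly fully methylated sites lay 142 nt apart on the minus strand of chromosome 9_10S, at 72103687 and 72103545, and a site of 18.8% (12 of 64 reads) lay 506 nt to the 5′ side of the first. In fzd7.L, 2 sites 142 nt apart on the minus strand of chromosome 9_10L, at 79370401 and 79370259, had 87.5% (476 of 544, 84.5% to 90.02%) and 84.4% (460 of 545, 81.1% to 87.2%). A site of 11.1% (95 of 858) lay 506 nt to the 5′ side of the first there as well. So the L and S copies of fzd7 had 3 sites in the same spacing and the same order of low, high and high. A further equal distance in fzd7, of 507 nt, joined sites of unlike order. From 5′ to 3′, these had 15.6% and 90% in the S copy, but 87.5% and 25.9% in the L copy.

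In fzd7.S, the intervals of the 2 high sites were 78.6% to 95.7% (45 of 50) and 83.5% to 97.9% (46 of 49), and they overlapped those of the L copy. The other 5 sites of fzd7.L had levels of 11.1% to 36.2%. In irf2bp2.S, the site at 95.2% (62 reads) had a neighbour 21 nt to the 5′ side at 42.5%. In irf2bp2.L, 2 sites 21 nt apart had only 14.3% (133 reads) and 20.4% (93 reads), so equal spacing did not come with equal levels there.

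Function was examined by gene name. When listed genes were put into 12 groups by the start of their names, 52 of the 281 sites fell into a group and 229 into none. The same split of all listed sites is not given here, so nothing is read from these 2 counts. The share of sites at 90% or more within a group was read against the 1.73% of the whole list. Kinases and phosphatases held 13 of their 455 listed sites (2.86%, 1.68% to 4.83%) and adhesion and matrix genes 5 of 163 (3.07%, 1.32% to 6.98%). Cell cycle genes held 3 of 370 (0.811%, 0.276% to 2.36%), membrane traffic genes 3 of 433 (0.693%, 0.236% to 2.02%) and genes with the name starts of the zinc finger group, such as znf and zbtb, 0 of 195 (upper bound 1.93%). Every interval included 1.73%, so no group stood apart at this number of sites. Name starts also catch genes of other function, such as mtor.L among the mitochondrial ones, and miss members. The zinc finger transcription factor genes ikzf4.S, which fell into no group, and klf15.2.L, which fell among the ubiquitin genes, were not counted as zinc finger genes.

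Among kinase and phosphatase genes, prkar2a.L, a regulatory subunit of protein kinase A, had 418 C of 446 reads (93.7%), at position 131623999 of chromosome 4L. In csnk1g1.S, a casein kinase gene, 256 of 283 were C (90.5%). In mtor.L, the growth-controlling kinase, 118 of 123 were C (95.9%, 90.8% to 98.3%), at position 58934570 of chromosome 7L. Adhesion genes included lamc1.S, a laminin chain, at 94.6% (506 of 535), and itgb1.S, an integrin chain, at 94.0% (79 of 84). Also in this group was sema4c.S, a semaphorin, at 95.8% (158 of 165). These values lie within the range of all nearly fully methylated sites by construction, as the sites are among them.

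RNA helicase and splicing genes held 5 of 243 sites (2.06%, 0.882% to 4.73%), translation and mRNA decay genes 4 of 229 (1.75%, 0.681% to 4.40%) and RNA modification genes 2 of 74 (2.70%, 0.744% to 9.33%). In snrpg.S, a core protein of the spliceosome, 964 of 1058 reads were C (91.1%, 89.2% to 92.7%). In rbm15b.S, an RNA-binding protein gene, 77 of 80 were C. The translation initiation genes eif3a and eif3b.L had 92.5% (576 of 623) and 90.7% (39 of 43). In adar.S, which encodes an RNA adenosine deaminase, 966 of 1056 were C (91.5%, 89.6% to 93.0%), and its nearest site, 385 nt away, had 10.3%.

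In the cell cycle group, cdk2.L, the kinase of the G1/S transition, had 657 C of 705 reads (93.2%, 91.1% to 94.8%), and a site 72 nt away had 35.1%. Chromatin genes held 3 of 249 sites (1.20%), among them set.S, a histone chaperone, at 90.9% (418 of 460) and smarca2.L, a remodelling ATPase, at 90.5% on 21 reads. Ubiquitin and proteasome genes held 6 of 465 (1.29%), with fbxo33.L at 93.3% (953 of 1021) and psme3.S, a proteasome activator, at 94.0% (440 of 468). In ube2r2, a ubiquitin-conjugating enzyme, the level was 92.1% (372 of 404). In rab3a.L, a small GTPase of vesicle release, 1279 of 1417 were C (90.3%, 88.6% to 91.7%), and in snx33.L, a sorting nexin, 44 of 45 (97.8%). Membrane protein genes held 7 of 548 sites (1.28%) and mitochondrial genes 4 of 202 (1.98%), including slc25a44.S at 94.4% (101 of 107), tmem56.S at 90.9% (80 of 88) and mrps31.L, of the mitochondrial ribosome, at 92.7% (76 of 82).

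Finally, the stage 25 list was searched for the same positions, to see which of these maternal sites were still called after the embryo's own genome had become active. It held 4 of the 281 nearly fully methylated sites (1.42%, 0.555% to 3.60%). Of the other 15952 stage 0 sites, it held 32 (0.201%, 0.142% to 0.283%). The intervals did not overlap. By stage 0 level, the listed share was 0.0741% (8 of 10794) for 10% to under 30%, 0.251% (7 of 2793) for 30% to under 50%, and 0.588% (8 of 1360) for 50% to under 70%. It was 0.896% (9 of 1005) for 70% to under 90%. The stage 25 list holds only levels of at least 10%, so a site that was low at stage 0 drops out after a smaller fall. These differences in share are therefore in part built in. Sites are not replicates of a stage, and with 1 list per stage no test against replicate error was possible. The 277 others may have been unmethylated, below the 10% minimum or not covered at stage 25, which the list cannot tell apart.

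At all 4 sites, the level was far lower at stage 25, as 3 of them show. In plin2.S, it was 18.3% at stage 25 (17 of 93 reads, 11.7% to 27.3%) and 91.1% at stage 0 (7876 of 8643). In gcdh.L, the gene of a mitochondrial dehydrogenase of lysine breakdown, it was 14.3% at stage 25 (6 of 42 reads, 6.72% to 27.8%) and 92.8% at stage 0 (206 of 222, 88.6% to 95.5%), at position 132467510 of the minus strand of chromosome 3L. In neither gene did the intervals of the stages overlap. The sites were chosen for their stage 0 level and the intervals cover counting error alone, so nothing is read from this.

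A further site was in pld6.S, which encodes a mitochondrial phospholipase D that takes part in piRNA production in mouse. At position 99476193 of the minus strand of chromosome 9_10S, the level was 24.0% at stage 25 (24 of 100 reads, 16.7% to 33.2%) and 93.4% at stage 0 (85 of 91, 86.4% to 96.9%). The differences, stage 25 minus stage 0, were -72.8 points in plin2.S, -78.5 in gcdh.L and -69.4 in pld6.S. The depth of the sites differed between the lists in unlike ways. The ratio of reads, stage 0 over stage 25, was 92.9 in plin2.S, 5.29 in gcdh.L and 0.91 in pld6.S. Fewer molecules of a transcript and fewer reads per molecule cannot be told apart in these counts.

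Fisher's exact test on the pooled reads, with Benjamini-Hochberg adjustment for the 36 sites found in both lists, called all 4 lower at stage 25, where it called 69.4% of the 36 sites lower. As the 4 sites were chosen for a high stage 0 level, nothing is read from this count. Their median level at stage 25 was 16.3%, while that of the other 32 shared sites was 19.3% (10.2% to 56.8%). None of the 55 sites at 95% or more at stage 0 was listed at stage 25. Of all nearly fully methylated sites, 1.42% were listed, so a count of 0 among 55 says little. Of the 31 nearly fully methylated sites with 1000 reads or more at stage 0, 2 were listed. The share among all stage 0 sites of that depth is not given here, so nothing is read from either count.

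**Figure D5:**
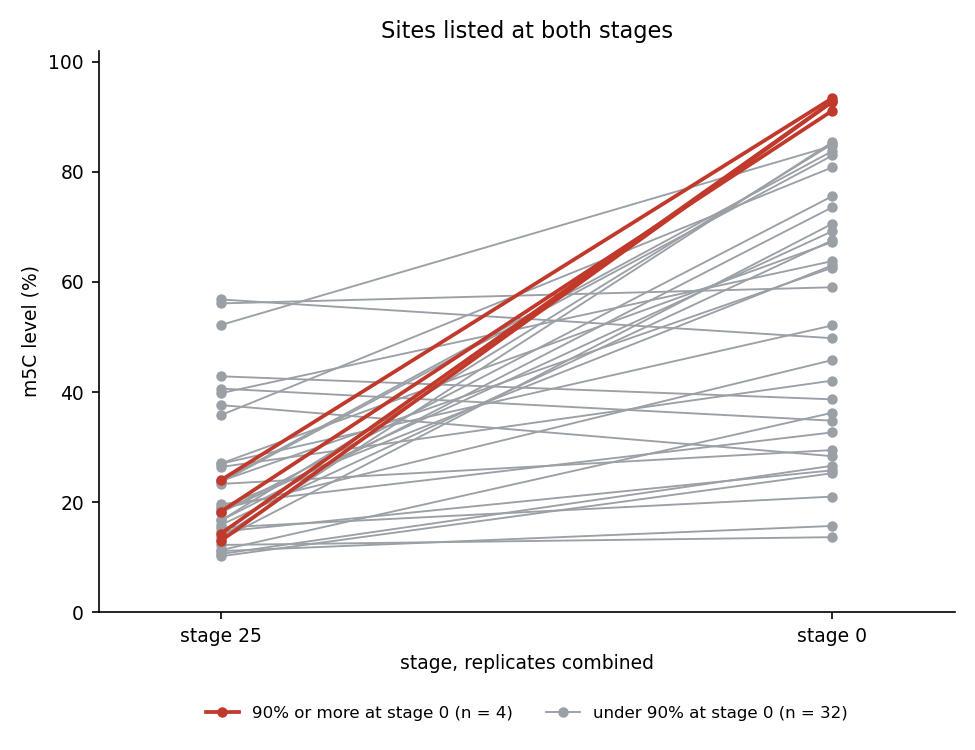
m5C level at stage 25 (left) and stage 0 (right) of the 36 sites listed at both stages, replicates combined (1 line per site, red for the 4 sites with 90% or more at stage 0, grey for the others). The red lines lie at 24.0% or less at stage 25 and at 91.1% to 93.4% at stage 0, and within the grey lines at stage 25 some sites are higher, up to 56.8%.

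One further gene appeared at stage 25 with a different site. In ddx25.L, the gene of an RNA helicase known from germ plasm in Xenopus, the nearly fully methylated site at position 67480939 of chromosome 7L (780 of 828 reads, 94.2%, 92.4% to 95.6%) was not listed at stage 25. At position 67473696 of the same gene, the level was 23.8% at stage 25 (31 of 130 reads, 17.3% to 31.9%) and 62.6% at stage 0 (3310 of 5288). This site was not chosen for its level. The difference of -38.7 points passed Fisher's exact test over the 36 shared sites (two-sided, adjusted p = 2.12e-18, on pooled reads). That test covers counting error alone, without the spread between replicates, and it called 69.4% of the 36 sites lower. The third site of the gene had 23.5% at stage 0 (411 of 1752) and was not listed at stage 25.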

How the data were processed

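RNA BS-seq of polyadenylated RNA was made from pooled X. laevis embryos at stage 25 and stage 0, with 2 libraries per stage, named technical replicates in 1 place of the study and biological in another. After trimming (cutadapt, Trimmomatic), the authors mapped the reads to the converted v9.2 genome with HISAT2 and then to the converted transcriptome with Bowtie2, and called sites with at least 20 reads and a level of at least 10%. They removed reads with many remaining C bases, which can also remove reads with several true m5C. The deposited coverage is a count of C and T reads, not normalized, with the replicates combined. The deposited level is a fraction and is printed as a percentage. A deposited p-value of each call, combined over replicates by the authors, was not used. Coverage times level was whole within 0.0001 reads at all sites and gave the C reads.

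Sites at 90% or more were taken and looked up in the other list by position and strand. Distances were counted along the genome within a gene and strand. Homeologs were matched by name. Levels have 95% Wilson intervals, and Fisher's exact test (two-sided, Benjamini-Hochberg threshold 0.05) was applied to the 36 shared sites. The test was also run on simulated data. Those reads were drawn independently, without spread between replicates or several reads from 1 molecule, so the simulation cannot show the effect of either. Other coverage and level minimums were tried. Of 271 gene names, 234 matched the RefSeq list of Xenopus_laevis_v10.1, used for names alone. Named sites were those at 100%, the 10 with the highest lower bound, the 10 with the most reads, pairs in a gene, those with a site within 10 nt or a gene at stage 25, those in the 5 genes with the most sites (6 with a tie), the 4 deepest of each function group and the 3 on either side of the limit. Some sites that meet these rules are not reported here. The sites, groups and rules were chosen with earlier results of these data known. Sequence motif, structure and place in the transcript were not analysed here. The tools were Python 3.11.15, scipy 1.17.1, pandas 2.3.3, numpy 2.4.6 and matplotlib 3.10.9.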

Additional observations from a re-analysis of the deposited data

How the results depend on the processing

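Of 45 values under other settings, 30 stayed within the set range and 15 moved. The 281 sites became 178 with a coverage minimum of 100 reads, 533 with a level of at least 85%, 55 with at least 95%, 437 with a lower bound of at least 80% and 87 with a lower bound of at least 90%. The 271 genes became 172 with 100 reads, 510 at 85% and 55 at 95%. These numbers move by construction, since fewer or more sites pass. The median coverage of 146 reads became 205 with a minimum of 50 reads, 303 with 100 reads and 102 at a level of at least 95%. At 95%, the share on L chromosomes was 68.0% in place of 58.6%, and the share with another site within 50 nt was 20.0% in place of 14.9%. Both shares at 95% rest on at most 55 sites and are given without intervals. Whether these shifts exceed counting error was not tested. The 4 sites listed at stage 25 became 1 with 100 reads at both stages and 0 at a level of at least 95%, where no median stage 25 level could be given. No paired analysis was possible because each list combines the replicates of its stage, and for the same reason no replicate could be left out and no replicate block was fitted. Depth limits the single levels: the interval extended a median of 3.90 points to either side of its middle, and at 19 sites the lower bound was under 80%.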
